A study of Mus musculus with 12 samples.

Results

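The interferon-stimulated genes described here are 34 mouse genes named by symbol, and all 34 were found among the 55401 genes of the deposited table. They were measured by RNA sequencing of dermis, the connective tissue layer of skin, in 12 samples from C57BL/6 mice aged 6 weeks. The 4 groups were wild-type (WT) dermis on day 0, Cthrc1-/- dermis on day 0, WT dermis on day 7 and Cthrc1-/- dermis on day 7, with 3 biological replicates in each. Cthrc1 encodes a secreted glycoprotein, and Cthrc1-/- mice lack it. The days are those of a wounding experiment, and the labels do not say how close to the wound the day 7 dermis was taken or how the deletion was made. No agent other than the wounding is named for any group. The questions the design poses are how these genes differed between day 0 and day 7 within each genotype, and between the genotypes on each day.

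Interferons are secreted proteins that signal through cell surface receptors to kinases, which for type I interferon are Jak1 and Tyk2. Type I interferon assembles a complex that includes Stat2 and Irf9 and binds a DNA sequence called the interferon-stimulated response element, and interferon gamma acts mainly at a different sequence, the gamma-activated site. The genes induced include antiviral effectors, sensors of foreign nucleic acid, the ubiquitin-like protein Isg15 and the factors of the pathway itself. In skin, plasmacytoid dendritic cells, macrophages, keratinocytes and fibroblasts are known to make or answer interferons after injury.

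The motif of the response element was searched for around the start sites of the members, as letters only. RefSeq start-site windows of GRCm38.p6, which run from 250 bases before to 50 bases after each start, were at hand for 25 of the 34 members, the others being Oas2, Mx1, Mx2, Usp18, Dhx58, Zbp1, Ifi27l2a, Rtp4 and Parp14. A pair of GAAA separated by 2 bases of any kind, or by 1 (GAAANGAAA), occurred on either strand in 18 of the 25 (72.0%), against 7.27% of 27025 mouse genes with such a window. The spacing of 2 bases occurred in 15 members (60.0%, against 3.99% of all genes) and that of 1 base in 8 (32.0%, against 3.70%), and matches to both can overlap. The gamma-activated site TTCNNNGAA occurred in 4 of the 25 members (16.0%), against 9.55% of all genes. Of the stretches below, those of Ifit3, Ifit3b, Ifit1 and Stat2 are shown because these genes rose in the tests that follow. Isg15 and Bst2 are shown as examples with overlapping copies, which Oas1a, Oas1g and Gbp3 hold too. Oasl2, which also rose, had no match in its window, and for Mx1, the remaining member that rose, no window was at hand. Each is read 5′ to 3′ on the gene's own strand, with the matches to either spacing in capitals (TTTC is GAAA read on the other strand).
Ifit3, chr19:34583359-34583429, plus strand: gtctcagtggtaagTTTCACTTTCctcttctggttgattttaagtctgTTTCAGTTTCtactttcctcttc
Ifit3b, chr19:34607755-34607825, plus strand: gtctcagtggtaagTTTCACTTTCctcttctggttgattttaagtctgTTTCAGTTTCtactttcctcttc
Ifit1, chr19:34640769-34640839, plus strand: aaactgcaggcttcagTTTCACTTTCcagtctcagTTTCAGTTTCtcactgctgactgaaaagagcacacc
Stat2, chr10:128270258-128270328, plus strand: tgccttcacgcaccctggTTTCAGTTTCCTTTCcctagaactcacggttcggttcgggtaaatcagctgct
Isg15, chr4:156200858-156200958, minus strand: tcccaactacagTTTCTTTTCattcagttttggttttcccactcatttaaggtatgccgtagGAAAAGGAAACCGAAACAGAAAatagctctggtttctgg
Bst2, chr8:71537552-71537622, minus strand: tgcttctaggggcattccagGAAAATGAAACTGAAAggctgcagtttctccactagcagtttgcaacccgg
The Ifit3 and Ifit3b stretches had 0 differences over 71 bases. Ifit1 holds the same pair of matched sequences closer together, Stat2 holds 2 overlapping matches, Bst2 2 and Isg15 4. A match is a description of the letters, not a measured binding site.

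Library size, the deleted gene and the make-up of the samples are given here before the values of the members. The libraries held between 48329668 and 76938132 counts, and 3 counts, the least taken as detectable, equal 0.0390 to 0.0621 CPM (counts scaled to library size), a limit for counting error only. Each Cthrc1-/- library held at most 15 Cthrc1 counts and each WT library at least 1813. No member had a count of 0 in any sample, and the lowest count of any member was 18. Fibroblast markers (8 genes such as Col1a1 and Dcn) were present in every sample, and the libraries of a group differed in make-up. WT day 7 replicate 1 had 5114 FPKM summed over 7 neutrophil markers and 2075 FPKM over 11 macrophage and monocyte markers, against at most 754 and 942 FPKM in the other WT day 7 replicates. The Cthrc1-/- day 0 replicates 1 to 3 had 229, 5022 and 12370 FPKM summed over 10 markers of growing hair follicles and 2496, 1360 and 370 FPKM over the fibroblast markers, so they spread widely, with replicates 1 and 3 at either end. In bulk tissue, fewer cells of a type and less RNA per cell cannot be told apart.

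**Figure D1:**
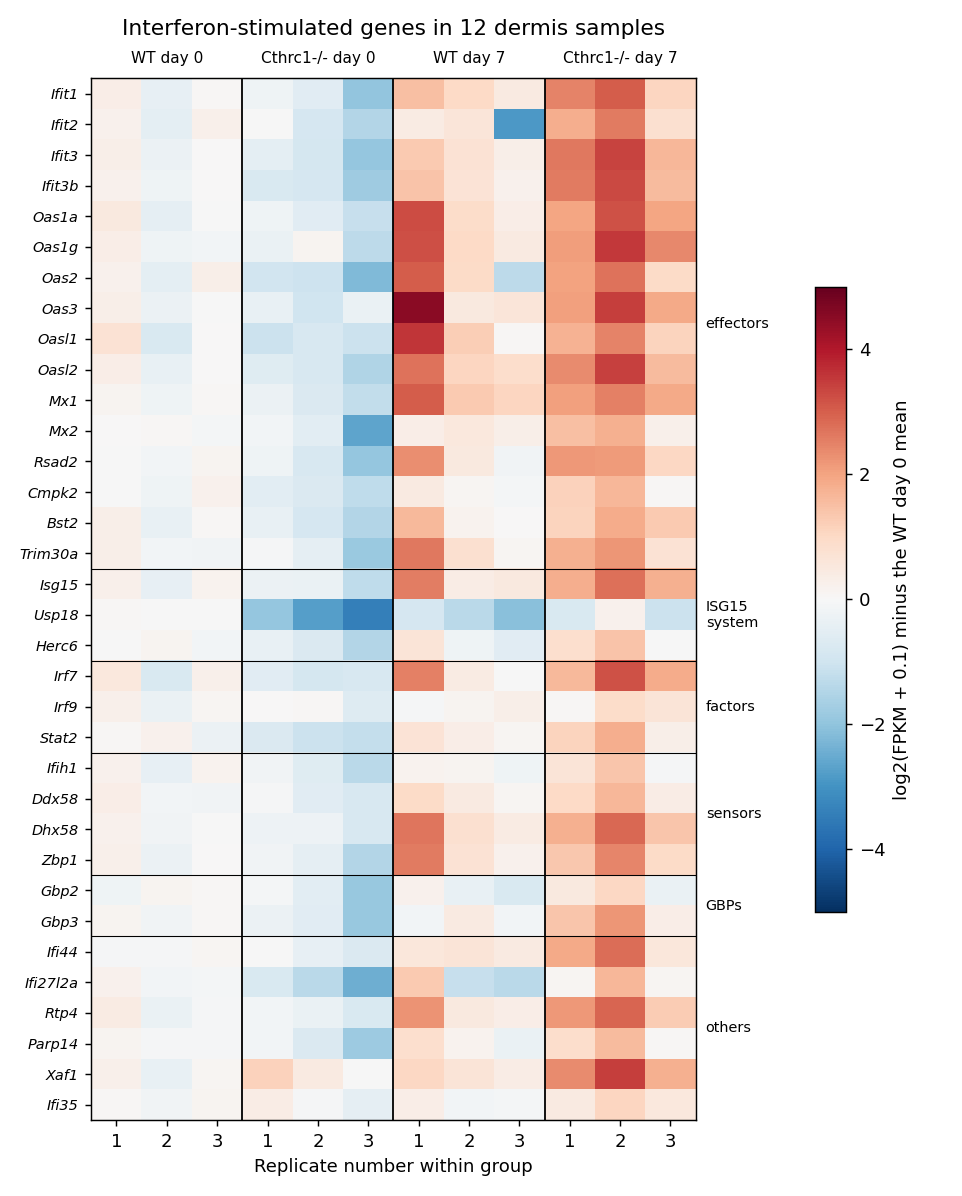
Heat map of the 34 interferon-stimulated genes (rows, grouped by role) in the 12 samples (columns, by group and replicate number); colour is log2(FPKM + 0.1) minus the gene's WT day 0 mean, red higher and blue lower. Cthrc1-/- day 0 replicate 3 is the bluest column overall (lowest of its group in 31 of 34 genes), Cthrc1-/- day 7 replicate 2 the reddest of its group (highest in 33), and WT day 7 replicate 1 is red for some genes and close to WT day 0 for others.

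FPKM, fragments scaled to transcript length and library size, allows levels to be compared between genes. The most abundant member over the 12 samples was Ifi27l2a, at a mean of 168 FPKM. Bst2, which encodes the virion-tethering membrane protein tetherin, followed at 57.4 FPKM. The median of the members' means was 4.07 FPKM. Herc6 (0.801 FPKM), the mouse ligase that attaches Isg15 to proteins, and Ifi44 (0.707 FPKM) fell under the minimum mean of 1 FPKM, so 32 of the 34 members entered the tests. Some members can share reads. Ifit3 and Ifit3b are 97.8% identical over 1700 aligned bases and Oas1a and Oas1g 97.6% over 1861. The split of reads within each pair is thus uncertain. Mx2 and Mx1 are 95.3% identical over 843 bases. Isg15 is 95.2% identical to AC151275.1 over 482 bases of its 756-base transcript. Herc6 matches Gm45193 at 100% over 688 bases and Rtp4 matches Gm45338 at 100% over 296. Xaf1 matches many genes over short stretches, the longest being 197 bases in Washc4 (95.4% identical).

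Between day 0 and day 7 in Cthrc1-/- dermis, 6 of the 32 members tested rose and none fell. The genes were Ifit3b, Ifit3, Oasl2, Ifit1, Mx1 and Stat2, which were between 4.83 and 14.3 times higher by mean FPKM. The edgeR quasi-likelihood test, adjusted over 14313 genes, called 0.859% of all genes higher at an adjusted p under 0.05, 0.601% lower and 1.46% in either direction. All 32 members had a log2 change above 0 (48.8% of all genes), from 0.54 for Ifi35 to 3.95 for Oas3. Their median was 2.36, against -0.013 over all genes tested. The 3 day 7 values all exceeded the 3 day 0 values in 32 of the 34 members, Irf9 and Gbp2 being the exceptions (21.5% of all genes tested were higher without overlap). At an unadjusted p under 0.05 there were 29 members (18.1% of all genes).

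The number of members called rested on single libraries and on the tool. It fell to 0 without Cthrc1-/- day 0 replicate 2, Cthrc1-/- day 7 replicate 1 or Cthrc1-/- day 7 replicate 2, to 2 (Ifit3 and Ifit3b) without Cthrc1-/- day 0 replicate 1, WT day 7 replicate 2 or any 1 WT day 0 replicate, and to 4 without Cthrc1-/- day 0 replicate 3. It was 25 without WT day 7 replicate 1, where 911 of the 14313 genes were called. DESeq2 called 27 members and 1409 of all genes, where the fit as reported called 209 of all genes. In each of the fits that left 0 members, 5 of all genes were called. The members' median log2 change stayed between 1.89 and 2.66 whichever library was left out.

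**Figure D2:**
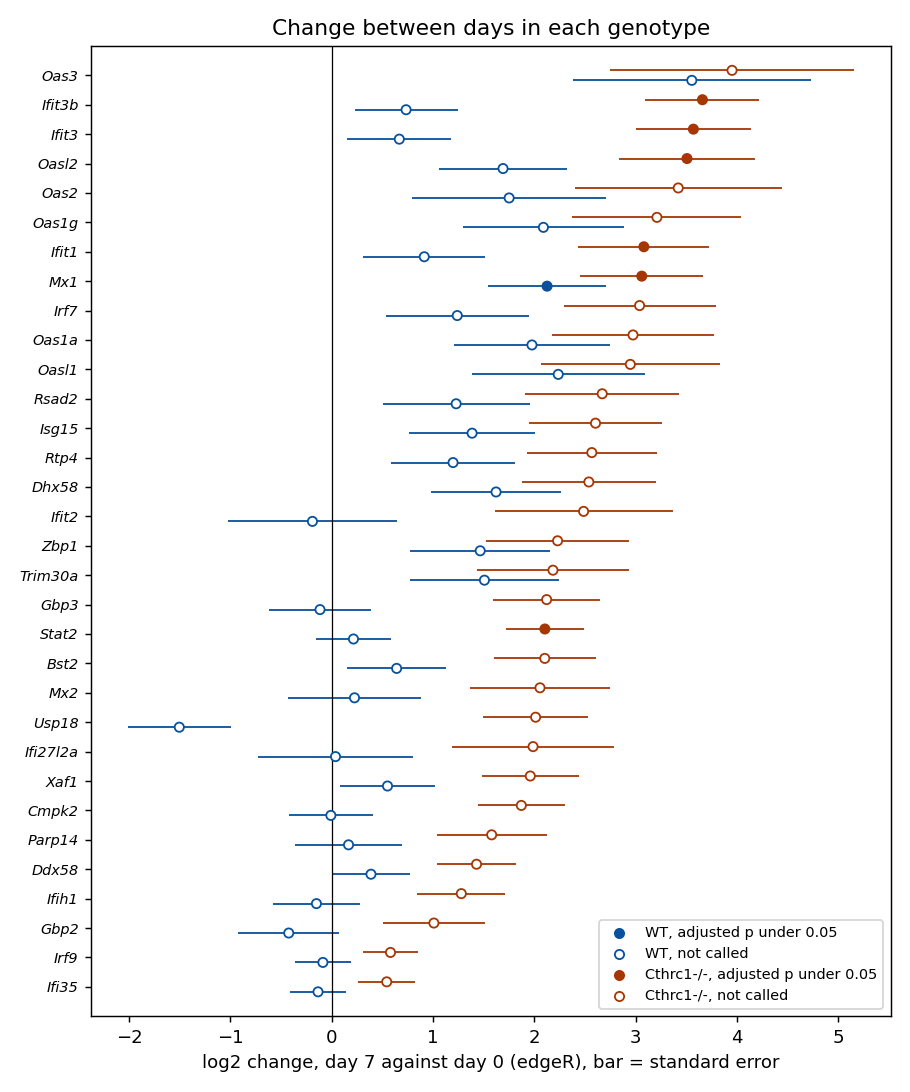
Log2 change from day 0 to day 7 (x axis, edgeR, with its standard error as a bar) for the 32 members tested (y axis, ordered by the Cthrc1-/- change), in WT and in Cthrc1-/-; filled points passed an adjusted p of 0.05. All 32 Cthrc1-/- points lie above 0, from 0.54 to 3.95, whereas the WT points run from -1.50 for Usp18 to 3.55 for Oas3.

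The Ifit genes encode proteins that bind viral RNA and block its translation. Ifit3 (ENSMUSG00000074896, chromosome 19, 34583531 to 34588731, plus strand) had 5.01, 3.75 and 1.76 FPKM in Cthrc1-/- day 0 replicates 1 to 3 and 44.0, 74.9 and 22.3 FPKM on day 7. In WT it had 8.64, 5.67 and 7.12 FPKM on day 0 and 17.6, 11.7 and 8.57 FPKM on day 7. The 3 Cthrc1-/- day 7 samples were thus the highest of the 12, while the WT days overlapped. Ifit3 rose in Cthrc1-/- by a log2 change of 3.57 (SE 0.564, edgeR adjusted p 0.0224), and the WT change was 0.67 (SE 0.512, edgeR adjusted p 0.397). Its near-identical neighbour Ifit3b (ENSMUSG00000062488, chromosome 19, 34607970 to 34613401, plus strand) had 1.27, 1.19 and 0.568 FPKM in Cthrc1-/- on day 0 and 13.7, 22.9 and 6.79 FPKM on day 7. In WT it went from 2.60, 1.86 and 2.21 FPKM to 6.08, 3.60 and 2.61 FPKM. Here too each Cthrc1-/- day 7 sample exceeded every other sample. The log2 change was 3.66 in Cthrc1-/- (SE 0.562, edgeR adjusted p 0.0216) and 0.73 in WT (SE 0.509, edgeR adjusted p 0.346).

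Ifit1 (ENSMUSG00000034459, chromosome 19, 34640871 to 34650009, plus strand) had 1.52, 1.17 and 0.373 FPKM in Cthrc1-/- on day 0 and 10.5, 15.1 and 3.89 FPKM on day 7. Its WT values were 2.27, 1.32 and 1.83 FPKM on day 0 and 5.22, 3.67 and 2.48 FPKM on day 7. The days did not overlap in either genotype, but on day 7 the lowest Cthrc1-/- sample lay below the highest WT sample. The Cthrc1-/- change was 3.08 on the log2 scale (SE 0.645, edgeR adjusted p 0.0495) and the WT change 0.91 (SE 0.601, edgeR adjusted p 0.322). Ifit2 had 2.05, 1.13 and 0.704 FPKM in the Cthrc1-/- day 0 samples and 7.75, 13.1 and 3.77 FPKM in the day 7 samples. Its log2 change of 2.49 did not pass the threshold (edgeR adjusted p 0.170).

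The 2′-5′ oligoadenylate synthetases answer double-stranded RNA by activating an RNase, and Oasl1 and Oasl2 are related proteins. Oasl2 (ENSMUSG00000029561, chromosome 5, 114896936 to 114912234, plus strand) had 1.32, 1.13 and 0.650 FPKM in Cthrc1-/- on day 0 and 10.8, 22.7 and 6.25 FPKM on day 7. In WT it had 2.63, 1.54 and 2.09 FPKM on day 0 and 13.8, 4.37 and 3.82 FPKM on day 7. The days were separate in both genotypes, and WT day 7 replicate 1 lay above replicates 1 and 3 of the Cthrc1-/- day 7 group. Oasl2 rose in Cthrc1-/- by 3.51 on the log2 scale (SE 0.676, edgeR adjusted p 0.0421), and in WT the change of 1.69 did not pass (SE 0.629, edgeR adjusted p 0.0952). Among the other synthetase genes Oas3 had the largest fold by mean FPKM in both genotypes, 17.5 in Cthrc1-/- and 12.5 in WT. Its day 7 values were 1.07, 3.03 and 0.956 FPKM in Cthrc1-/- and 6.40, 0.303 and 0.329 FPKM in WT, so the WT mean rested on replicate 1. Neither change was called (edgeR adjusted p 0.119 in Cthrc1-/- and 0.0698 in WT). For Oas1a, Oas1g, Oas2 and Oasl1 the Cthrc1-/- log2 changes were 2.97, 3.21, 3.42 and 2.95, with no overlap between days, and none was called.

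Mx1 encodes a dynamin-like antiviral GTPase, and C57BL/6 mice are known to carry defective alleles of Mx1 and Mx2. Mx1 (ENSMUSG00000000386, chromosome 16, 97447035 to 97462907, minus strand) had 0.448, 0.305 and 0.183 FPKM in Cthrc1-/- on day 0 and 2.71, 3.81 and 2.41 FPKM on day 7. In WT it had 0.637, 0.485 and 0.608 FPKM on day 0 and 5.34, 1.56 and 1.32 FPKM on day 7. Mx1 rose by 3.06 on the log2 scale in Cthrc1-/- (SE 0.606, edgeR adjusted p 0.0440) and by 2.12 in WT (SE 0.582, edgeR adjusted p 0.0400), and no other member was called in both. The WT change was 1.17 without WT day 7 replicate 1, and with single libraries left out it ran from 1.17 to 2.49. Mx1 and Oas3 were under 1 FPKM in all 6 day 0 samples, so they passed the minimum mean through day 7. Oas1g, Oas2, Oasl1, Mx2 and Rsad2 averaged under 1 FPKM over the day 0 samples and passed it likewise. With no filter the edgeR adjusted p of Mx1 was 0.0571 in WT and 0.0497 in Cthrc1-/-. The median log2 change of all 34 members was then 0.68 in WT and 2.36 in Cthrc1-/-. Cmpk2, a mitochondrial nucleotide kinase next to Rsad2 on chromosome 12 (ENSMUSG00000020638, 26469204 to 26479837, plus strand), had 0.948, 0.831 and 0.526 FPKM in Cthrc1-/- on day 0 and 3.28, 4.74 and 1.47 FPKM on day 7. The WT values were 1.41, 1.22 and 1.64 FPKM on day 0 and 1.97, 1.50 and 1.31 FPKM on day 7. In Cthrc1-/- the days did not overlap, and the log2 change of 1.87 missed the threshold (SE 0.431, edgeR adjusted p 0.0639). Rsad2 itself, which encodes viperin, had log2 changes of 2.67 in Cthrc1-/- (edgeR adjusted p 0.102) and 1.23 in WT (edgeR adjusted p 0.271). Bst2 had 29.5, 21.2 and 13.7 FPKM in Cthrc1-/- on day 0 and 82.2, 138 and 92.7 FPKM on day 7, a log2 change of 2.10 with an edgeR adjusted p of 0.0684.

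**Figure D3:**
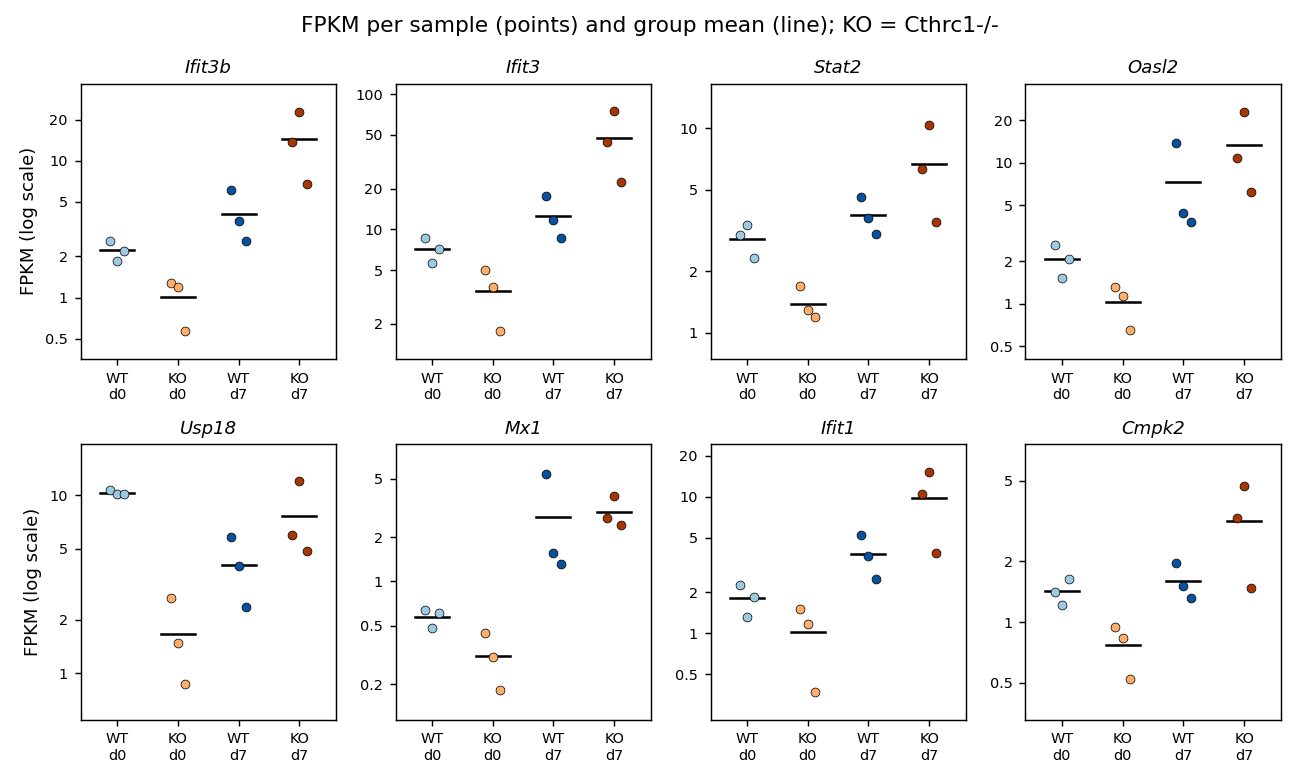
FPKM on a log axis for the 7 members called in any comparison and Cmpk2, with 1 point per sample and a line at each group mean; KO stands for Cthrc1-/- and d0 and d7 for the days. Ifit3 and Ifit3b are highest in the 3 Cthrc1-/- day 7 samples, and Usp18 is highest in WT on day 0 apart from 1 Cthrc1-/- day 7 sample at 12.1 FPKM.

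Isg15 is a ubiquitin-like protein that is conjugated to other proteins, and Usp18 removes it and also dampens signalling from the type I receptor. Isg15 had 11.6, 11.2 and 5.81 FPKM in Cthrc1-/- on day 0 and 50.3, 95.5 and 49.4 FPKM on day 7, and in WT 16.9, 10.7 and 16.0 FPKM on day 0 and 84.3, 18.6 and 19.9 FPKM on day 7. The days did not overlap in either genotype, and the log2 changes of 2.60 in Cthrc1-/- (edgeR adjusted p 0.0772) and 1.39 in WT (edgeR adjusted p 0.155) were not called. Usp18 (ENSMUSG00000030107, chromosome 6, 121245906 to 121270917, plus strand) followed another course. It had 10.7, 10.3 and 10.2 FPKM in WT on day 0 and 5.81, 4.01 and 2.37 FPKM on day 7. In Cthrc1-/- it had 2.66, 1.47 and 0.874 FPKM on day 0 and 6.03, 12.1 and 4.85 FPKM on day 7. All 3 WT samples were thus lower on day 7 than on day 0 and all 3 Cthrc1-/- samples higher. Neither change between days was called, at -1.50 in WT (SE 0.510, edgeR adjusted p 0.0746) and 2.01 in Cthrc1-/- (SE 0.519, edgeR adjusted p 0.0817). Of the 2790 exon bases of Usp18, 124 overlap Gm44148 on the opposite strand, and whether the counting used strand is not given in the sources used here. Usp18 is 1 of 10 members with exon bases that overlap another gene. The largest shares of exon bases were 16.8% in Ifi35 (opposite strand), 13.9% in Rtp4 and 13.7% in Herc6 (both same strand).

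Of the factors of the pathway, Stat2 (ENSMUSG00000040033, chromosome 10, 128270559 to 128292849, plus strand) had 1.69, 1.29 and 1.19 FPKM in Cthrc1-/- on day 0 and 6.31, 10.3 and 3.49 FPKM on day 7. In WT it had 2.99, 3.35 and 2.33 FPKM on day 0 and 4.59, 3.65 and 3.04 FPKM on day 7. The Cthrc1-/- days were separate and the WT days overlapped. Stat2 rose in Cthrc1-/- by 2.10 on the log2 scale (SE 0.385, edgeR adjusted p 0.0364), and the WT change was 0.21 (SE 0.369, edgeR adjusted p 0.731). Irf7, which drives interferon alpha genes, had a larger log2 change in Cthrc1-/- of 3.04, with a wider error (SE 0.750, edgeR adjusted p 0.0751). Irf9, the DNA-binding partner of Stat2, ranged from 3.43 to 5.69 FPKM in Cthrc1-/- on day 0 and from 5.66 to 10.3 FPKM on day 7, overlapping by a narrow margin, with a log2 change of 0.58 (edgeR adjusted p 0.295).

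None of the 4 nucleic acid sensors was called, although each had separate day 0 and day 7 values in Cthrc1-/-. Their log2 changes there were 1.28 for Ifih1 and 1.43 for Ddx58, both helicases that sense viral RNA, 2.54 for Dhx58, their regulator, and 2.23 for Zbp1, a sensor of Z-form nucleic acid. The edgeR adjusted p-values ran from 0.0850 to 0.158. Gbp2 and Gbp3, interferon-induced GTPases that act on pathogen-containing vacuoles, had log2 changes of 1.01 and 2.12 (edgeR adjusted p 0.320 and 0.0768). The remaining members, Ifi44, Ifi27l2a, Rtp4, Parp14, Xaf1 and Ifi35, were all higher on day 7 without overlap in Cthrc1-/-, and the 5 tested had log2 changes from 0.54 to 2.57 that did not pass (edgeR adjusted p from 0.0735 to 0.335).

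Between the same days in WT dermis, 1 of the 32 members was called, Mx1, which rose. The edgeR test called 13.1% of all genes in either direction and 6.04% higher. Of the members, 24 had a log2 change above 0 (49.8% of all genes), and the median was 0.70, against -0.0019 over all genes. The days did not overlap for 11 members that were higher on day 7 (29.8% of all genes tested) and for 1, Usp18, that was lower (14.1% of all genes tested). At an unadjusted p under 0.05 there were 8 members, against 32.5% of all genes. The mean fold on day 7 ranged from 0.391 for Usp18 to 12.5 for Oas3, with a median of 1.73 over the 34 members, against 5.82 in Cthrc1-/-. Without WT day 7 replicate 1 no member was called and the median log2 change was 0.19. The Mx1 call was also lost without any 1 WT day 0 or Cthrc1-/- day 7 replicate and without Cthrc1-/- day 0 replicate 2. Without WT day 7 replicate 3 there were 4 calls (Oas1a, Oas3, Oasl1 and Mx1), beside 2043 of the 14313 genes. Leaving out Cthrc1-/- day 0 replicate 3 gave 2 calls, Mx1 higher and Usp18 lower, beside 3005 of all genes. DESeq2 called 7 members, 6 higher and 1 lower, beside 3551 of all genes. The fit as reported called 1880 of all genes.

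WT day 7 replicate 1 did not differ from its group in the same way for all members. It was the highest WT day 7 sample for 29 of 34 members (26.4% of all genes tested), and its FPKM divided by the mean of replicates 2 and 3 ranged from 0.811 to 20.2. For 15 members the ratio was at least 3, led by Oas3 (20.2), Oasl1 (7.38), Oas2 (7.36), Oas1a (6.14), Oas1g (5.85), Ifi27l2a (5.85) and Irf7 (5.03). For 17 members it was under 2, among them all 4 Ifit genes (1.63 to 1.96), Stat2 (1.37), Xaf1 (1.47) and both guanylate-binding genes (1.70 for Gbp2 and 0.811 for Gbp3). These groupings were drawn from the values themselves and carry no test. In the Cthrc1-/- day 7 group the highest sample was replicate 2, for 33 of 34 members (33.0% of all genes tested), and its FPKM was between 1.35 and 2.99 times the mean of the other replicates.

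On day 0, 1 of 32 members was called between genotypes: Usp18 was lower in Cthrc1-/-. The edgeR test called 2.26% of all genes lower and 5.78% in either direction. Usp18 averaged 10.4 ± 0.265 FPKM (SD, n = 3) in WT and 1.67 ± 0.908 FPKM (SD, n = 3) in Cthrc1-/-, a log2 change of -2.71 (SE 0.533, edgeR adjusted p 0.0307) that left all 3 Cthrc1-/- samples below all 3 WT samples. Only Xaf1, linked to cell death, had a log2 change above 0 (0.53, edgeR adjusted p 0.478), where 46.4% of all genes did. The median was -0.88, against -0.047 over all genes, and 18 of the 34 members were lower without overlap (19.8% of all genes tested), while 4 had an unadjusted p under 0.05 (28.4% of all genes). Stat2 came next after Usp18 by adjusted p, at -1.15 on the log2 scale (SE 0.375, edgeR adjusted p 0.0885). Ifi27l2a had 185, 142 and 149 FPKM in WT and 94.1, 61.8 and 29.3 FPKM in Cthrc1-/-. Its log2 change of -1.44 was not called (edgeR adjusted p 0.252).

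Cthrc1-/- day 0 replicate 3 was the lowest of its group for 31 of 34 members (38.8% of all genes tested), and the lowest of all 12 samples for 29. Without it the median log2 change on day 0 was -0.49 and no member was called, Usp18 then at -2.38. The Usp18 call was also lost without any 1 WT day 0 replicate, without Cthrc1-/- day 0 replicate 2 or Cthrc1-/- day 7 replicate 1, and when only the day 0 samples were fitted. Beside these values, macrophage and monocyte markers on day 0 summed to between 416 and 438 FPKM in WT and between 131 and 316 FPKM in Cthrc1-/-, with none of the 11 at 0. The 6 endothelial markers summed to between 56.1 and 56.7 FPKM in WT and between 16.0 and 44.5 FPKM in Cthrc1-/-, and the 8 fibroblast markers to between 4921 and 6536 and between 370 and 2496 FPKM. Growing hair follicle markers went the other way, from at most 9.51 FPKM in WT to between 229 and 12370 FPKM in Cthrc1-/-. The part of tissue make-up in the day 0 difference, and in the day 7 against day 0 change in Cthrc1-/- that starts from the same samples, was not tested.

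On day 7, no member was called between genotypes by edgeR, where 0.021% of all genes were called, and 4 members had an unadjusted p under 0.05 (5.46% of all genes). DESeq2 called 1, Xaf1, beside 62 of all genes, and limma on log2 FPKM called 0. Of the 32 members, 28 had a log2 change above 0 (49% of all genes), with a median of 0.58 against -0.0055 over all genes, and the edgeR adjusted p-values ran from 0.805 to 0.998. The Cthrc1-/- samples were higher without overlap for 5 members, Ifit2, Ifit3, Ifit3b, Ifi35 and Xaf1 (6.46% of all genes tested). Xaf1 had 4.63, 3.45 and 2.83 FPKM in WT and 11.8, 25.1 and 7.75 FPKM in Cthrc1-/-, which gave a log2 change of 1.94 (SE 0.480, edgeR adjusted p 0.805). Ifit3 and Ifit3b had log2 changes of 1.80 and 1.71 (edgeR adjusted p 0.907 for each). Without WT day 7 replicate 1 the median was 1.44 and 23 of the 34 members were higher in every Cthrc1-/- sample than in both remaining WT samples (9.97% of all genes tested), with no member called, while without Cthrc1-/- day 7 replicate 2 the median was 0.18.

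The genotypes' changes between days were compared directly by the interaction of genotype and day, and no member was called, by edgeR or by limma on log2 FPKM. The edgeR test called 0.014% of all genes. DESeq2 called 4 members, Ifit3, Ifit3b, Usp18 and Stat2. All 32 members had an interaction above 0 (51.5% of all genes), that is, a more positive change in Cthrc1-/- than in WT, with a median of 1.43 against 0.020 over all genes, and 9 had an unadjusted p under 0.05 (15.1% of all genes). The largest was that of Usp18 at 3.52 (SE 0.728, edgeR adjusted p 0.149), followed by Ifit3b at 2.92 (SE 0.731, edgeR adjusted p 0.193) and Ifit3 at 2.90 (SE 0.737, edgeR adjusted p 0.193). Usp18 was called without Cthrc1-/- day 0 replicate 1. The median was 2.29 without WT day 7 replicate 1 and 1.01 without Cthrc1-/- day 7 replicate 2. The interaction takes in the lower day 0 values of Cthrc1-/- as well as the higher day 7 values, and the 2 changes between days use different samples.

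**Figure D4:**
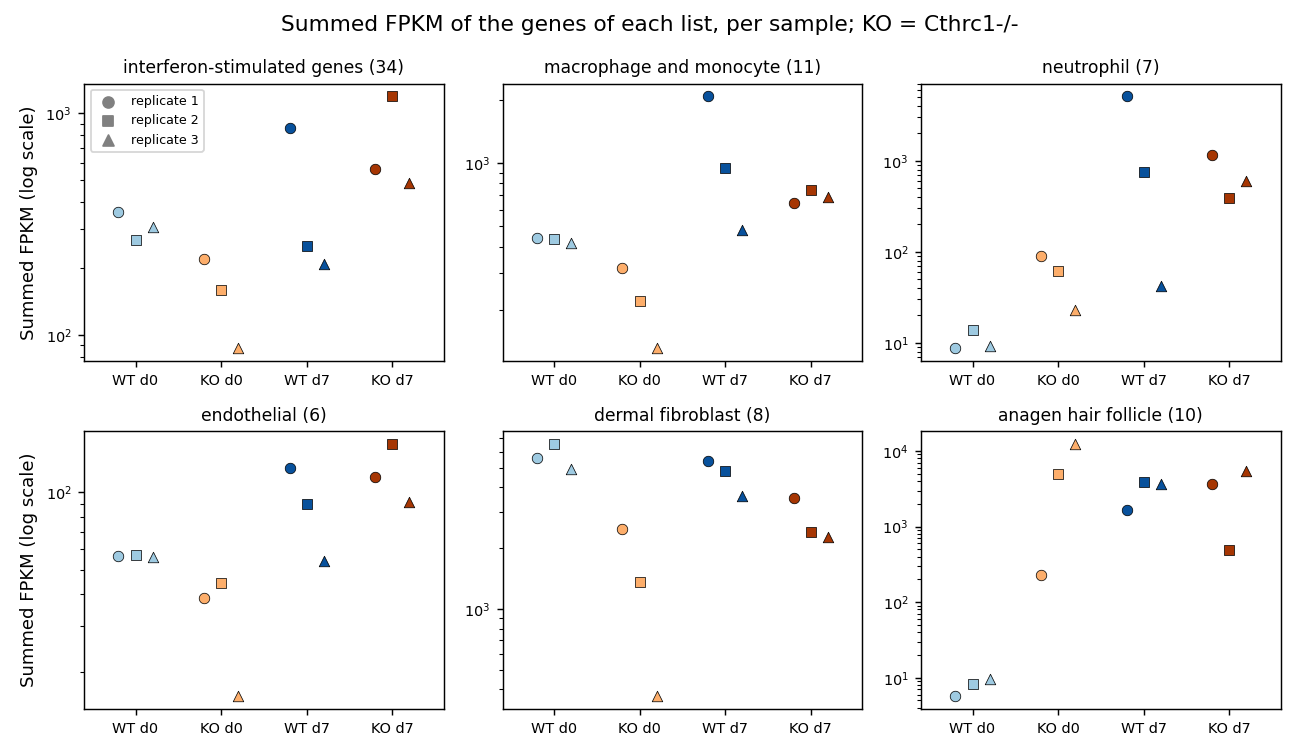
Summed FPKM (log axis) per sample of the 34 interferon-stimulated genes and of marker lists for other cell types, by group; the symbol gives the replicate number. The members' sum is 859 FPKM in WT day 7 replicate 1 against 253 and 210 FPKM in its group, and the neutrophil sum is 5114 FPKM in that same sample, whereas the Cthrc1-/- day 7 sample with the largest members' sum (1195 FPKM) has the lowest neutrophil sum of its group (389 FPKM).

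The members' summed level was between 270 and 358 FPKM in WT on day 0, between 87.0 and 219 FPKM in Cthrc1-/- on day 0, and 561, 1195 and 484 FPKM in Cthrc1-/- day 7 replicates 1 to 3. In WT on day 7 it was 859, 253 and 210 FPKM. By this sum replicates 2 and 3 lay below the WT day 0 samples and replicate 1 above them. These sums are carried by Ifi27l2a and Bst2. The mean log2(FPKM + 1) over the 34 members placed replicates 2 and 3 differently. It was 3.32, 2.35 and 2.01 in WT day 7 replicates 1 to 3, and at most 2.23 in WT on day 0. By that mean replicate 2 lay above all WT day 0 samples and replicate 3 within their range. Neutrophil markers on day 7 summed to 5114, 754 and 42.5 FPKM in WT and to 1165, 389 and 592 FPKM in Cthrc1-/-, with Ly6g the only one of the 7 at 0 in any sample. Macrophage and monocyte markers summed to 2075, 942 and 480 FPKM in WT and to 645, 745 and 690 FPKM in Cthrc1-/-. The 6 endothelial markers summed to 124, 90.0 and 54.1 FPKM in WT on day 7 and to 115, 154 and 91.5 FPKM in Cthrc1-/-. Their replicates stood in the order of the members' sum in both genotypes on day 7 and in neither on day 0. All 6 were higher on day 7 than on day 0 without overlap in Cthrc1-/- (21.5% of all genes tested), with a median log2 change of 1.76. So were 10 of 11 macrophage and monocyte markers (list median 1.41) and 5 of 7 neutrophil markers (list median 2.77). Of the endothelial markers 1, the receptor gene Tie1, rose (log2 change 1.81, edgeR adjusted p 0.0440), where 0.859% of all genes were called higher. Within WT on day 7, the order of the replicates was the same for the neutrophil and macrophage lists and for the members' sum. In Cthrc1-/- on day 7 the replicate with the highest members' sum had the lowest neutrophil and the highest macrophage sum. It also had the lowest hair follicle sum, 488 FPKM against 3672 and 5355 FPKM. Markers of plasmacytoid dendritic cells (5 genes) summed to at most 2.22 FPKM in any sample. The part of any of these cells in the members' values was not tested.

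The rest of the pathway was given by 86 genes, of which 73 were tested. Of 10 interferon ligand genes none reached the minimum level, and their sum was between 0.0597 and 1.18 FPKM per sample, with up to 9 of the 10 at 0 in a sample. The 6 receptor genes were all tested, and 1 was called in any comparison, Ifngr2, a chain of the interferon gamma receptor. Ifngr2 rose in WT between days by 0.81 on the log2 scale (SE 0.180, edgeR adjusted p 0.0195), where 6.04% of all genes were called higher. Its values were 8.90, 8.10 and 8.83 FPKM on day 0 and no lower than 14.5 FPKM on day 7. Among 12 Janus kinase, Stat and interferon regulatory factor genes, Tyk2, the kinase bound to the type I receptor, was lower in Cthrc1-/- on day 0. Its log2 change was -0.47 (SE 0.113, edgeR adjusted p 0.0433), where 2.26% of all genes were called lower. It had 5.10, 4.60 and 5.42 FPKM in Cthrc1-/- against 6.79, 6.66 and 6.02 FPKM in WT. Of the 9 upstream sensors and adaptors tested, none was called in any comparison.

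Among 29 further interferon-induced genes, all tested, 4 rose between days in Cthrc1-/- (0.859% of all genes were called higher): Lgals3bp, a secreted glycoprotein (log2 change 3.23), Slfn8 (3.70), Phf11d (2.72) and Ube2l6, the conjugating enzyme for Isg15 (2.21), with edgeR adjusted p-values from 0.0376 to 0.0440. All 29 had a change above 0 there (48.8% of all genes), and their median was 1.36. Lgals3bp also rose in WT, by 2.70 (SE 0.639, edgeR adjusted p 0.0245), from 8.75, 5.87 and 6.09 FPKM to 88.3, 33.2 and 25.4 FPKM. It was the only one of the 29 called in WT (6.04% of all genes higher), where their median change was 0.59.

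Genes known mainly as targets of interferon gamma, 18 in number and 17 tested, had no member called in any comparison. In WT 1 of 17 had a log2 change above 0 between days (49.8% of all genes), with a median of -0.26. In Cthrc1-/- 16 of 17 did (48.8% of all genes), with a median of 1.59, but only 6 of the 18 were higher on day 7 without overlap (21.5% of all genes tested). Their sum in Cthrc1-/- was 98.2, 70.4 and 36.6 FPKM on day 0 and 122, 189 and 85.4 FPKM on day 7, so the days overlapped. On day 7 all 17 had a log2 change above 0 for Cthrc1-/- against WT (49% of all genes), with a median of 1.06. There 8 were higher without overlap (6.46% of all genes tested) and 7 had an unadjusted p under 0.05 (5.46% of all genes). The interaction was above 0 for all 17 (51.5% of all genes), with a median of 1.92, and 11 had an unadjusted p under 0.05 (15.1% of all genes), the lowest edgeR adjusted p being 0.203.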

How the data were processed

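Poly(A) RNA was sequenced in pairs from strand-marked libraries with molecular identifiers, per the labels' protocols. Trimming with cutadapt 1.9, alignment with HISAT2 2.0.4 to GRCm38, UMI-tools, StringTie 1.3.4d, DESeq2 and edgeR are named in the submitters' processing notes. The table the authors deposited gives a whole-number count and an FPKM value per gene and sample. Every count of 0 carried an FPKM of 0.0001 in the deposited table, read here as 0. Deposited counts favour multiples of 4 (a value of 4 was 3.16 to 4.05 times as frequent as its neighbours), so a count may not be 1 fragment, and whether reads were collapsed on identifiers is not given in the sources used here. Gene IDs were matched to GENCODE M21 names (55141 of 55401), which also give the gene coordinates. Value columns not used numbered 0.

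Counts were tested with edgeR 4.0.16 (quasi-likelihood, two-sided, TMM, all 12 samples, 1 mean per group, R 4.3.3) over the 14313 genes that reached 1 FPKM on average, adjusted by Benjamini-Hochberg and called under 0.05. The SE is the log2 change over the root of F. P-values set a change against the spread between biological replicates, 3 in each group. That spread is estimated per gene over all 4 groups together and drawn towards that of other genes. Libraries outside a comparison thus also affect its p-values. Alternatives used DESeq2 1.42.0, limma 3.58.1, other scalings and filters, a replicate block and single libraries left out. The procedure was also run on simulated counts. Those held no libraries that differ in make-up within a group, so that run does not bear on such libraries here. Members given sample by sample were those called in any comparison, filled to 8 by the smallest p between days, and pathway genes named were those called. Oas3, Isg15, Bst2, Ifi27l2a, Xaf1 and other members given with sample values outside this rule were chosen after their values were seen. The members, the gene lists and the tests were chosen with earlier results of these data known. Gene start-site windows and their sequence are from RefSeq (GRCm38.p6).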

Additional observations from a re-analysis of the deposited data

How the results depend on the processing

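Division of counts by 4, edgeR with RLE size factors and the other settings not named below left each number of members called within 1.5 times the reported one, though not always the same genes: limma on log2(FPKM + 1) called Usp18 lower in WT between days in place of Mx1 (adjusted p 0.0504), and without the filter 5 members were called in Cthrc1-/-, Ifit1 being lost. For day 7 against day 0 in WT (1 member called, 1880 of all genes), DESeq2 called 7 members and 3551 of all genes. Leaving out the filter left 0, fitting only the 2 groups left 0, and leaving out single libraries gave 0 to 4. A mean FPKM of at least 5 kept 15 members without Mx1, so the Mx1 call could not recur, and left 0. For the same days in Cthrc1-/- (6 called, 209 of all genes), total-count scaling called 19 (747 of all genes) and DESeq2 27 (1409). Limma called 20 on log2(FPKM + 1) (775 of all genes) and 19 on log2(FPKM + 0.1) (773). Fitting only the 2 groups left 2 (Oasl1 and Mx1, beside 89 of all genes), and single libraries gave 0 to 25 (5 to 911). A mean FPKM of at least 5 removed Ifit1, Stat2 and Mx1 before the test, and the other 3 stayed called. Between genotypes on day 0 (1 called), DESeq2 called 2 (2787 of all genes), the day 0 groups alone 0 and single libraries left out 0 to 1. On day 7 (0 called) DESeq2 called 1 (62 of all genes). For the interaction (0 called) it called 4, with 0 to 1 when single libraries were left out.

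WT day 7 replicate 1 and Cthrc1-/- day 0 replicate 3 were left out together in an alternative chosen after seeing the data. Then 2 members (2754 of all genes) were called in WT and 21 (1651 of all genes) in Cthrc1-/- between days. The median log2 changes were 0.13 in WT, -0.46 between genotypes on day 0, 1.44 on day 7 and 2.03 for the interaction. With single libraries left out these medians ran from 0.18 to 1.44 on day 7 and from 1.01 to 2.29 for the interaction, from 0.19 to 0.98 in WT between days and from -1.24 to -0.49 between genotypes on day 0. Where a call was lost or gained the cause was not tested. Such fits hold fewer samples and a new estimate of the shared spread. With a WT library left out, the Cthrc1-/- median between days was 2.36 to 2.41, while the members called ran from 2 to 25.

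Log2 changes near 0 turned sign. The WT change of Cmpk2 between days, -0.01 as reported, was 0.034 with RLE size factors, 0.17 with total counts, 0.034 with DESeq2, 0.092 and 0.14 with limma, 0.018 without the filter and -0.17 to 0.16 with single libraries left out. That of Stat2 was -0.0011 without both libraries. The day 7 difference of Mx1, -0.03 as reported, was 0.12 with total counts, 0.23 and 0.37 with limma, 0.26 with the replicate block, 1.02 without both libraries and -0.39 to 1.02 with single libraries left out. Total-count scaling moved the median of all genes to 0.20 in WT and 0.16 in Cthrc1-/- between days.

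The replicate numbers 1 to 3 recur in every group, but the labels do not say that they mark shared animals or days, and same-numbered samples did not all deviate together. Between days, their correlations across genes ran from 0.0314 to 0.0742 in WT, where each sample correlated best with its own number, and from -0.0390 to 0.478 in Cthrc1-/-, where that held for number 3 and not for 1 and 2. With the replicate block, 8 members were called in Cthrc1-/- between days (Bst2 and Ddx58 added), 1 in WT (Usp18, lower, in place of Mx1), 1 on day 0 (Usp18) and 0 in the other comparisons. With 3 samples a group an exact two-sided permutation test of a single gene cannot go below a p of 0.1. The lowest count of any member was 18, and Mx2 and Oas3 were the 2 with a count under 20 in a sample. Because a count may not be 1 fragment, the limit that depth sets on the lowest values is uncertain.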
